A study of Mus musculus with 14 samples.

Results

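The measurements concern the stage dependence of the Rnaseh1 response in mouse oocytes, that is, how far the effect of Rnaseh1 overexpression on each transcript differed between 2 stages of oocyte growth. For every gene, the difference between Rnaseh1 and mCherry oocytes on the log2(TPM + 1) scale was taken in each stage, and the NSN value was subtracted from the SN value (TPM, transcript abundance per gene corrected for length and scaled to a common total). A gene counted when its TPM was at least 1 in at least 2 of 8 libraries, which held for 12736 of 35389 gene identifiers. Among them, 376 genes (2.95%) moved in opposite directions in the 2 stages with no overlap between Rnaseh1 and mCherry libraries in either stage. Of these, 24 did so by at least 1 on the log2 scale each way. With 2 libraries per group such separation also arises without any effect, so the counts are descriptions.

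Polyadenylated RNA was sequenced from oocytes in 4 groups of 2 libraries: SN oocytes overexpressing Rnaseh1, SN oocytes overexpressing mCherry, NSN oocytes overexpressing Rnaseh1 and NSN oocytes overexpressing mCherry. A further 6 libraries, the rescue set, held Rnaseh1, Rnaseh1 together with Supt6, and mCherry, again 2 libraries each and with no stage in their labels. The control in every comparison was thus itself an oocyte that carried an overexpressed fluorescent protein, not an untreated one. Strain, age, the way the proteins were delivered and the number of oocytes behind a library are not given in the sources used here, and nor is whether replicate libraries are separate animals, so the errors below measure the spread between libraries only. In bulk RNA of this kind, fewer cells of a type and less RNA per cell cannot be told apart.

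Rnaseh1 encodes ribonuclease H1, which cuts the RNA strand of RNA:DNA hybrids and so removes R-loops, the structures in which a new transcript stays paired with its template. In the growing mouse oocyte the chromatin of the nucleus first lies away from the nucleolus (non-surrounded nucleolus, NSN) while transcription is active. It later condenses around it (surrounded nucleolus, SN), and transcription falls nearly silent, so that the RNA of an SN oocyte is mostly a stored pool. The series addressed R-loops and histone H3 methylation during the passage to the SN stage.

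R-loops are known to form often at CG-rich gene starts, and the promoters of 3 genes described first are shown for their sequence context. They run from 250 bases before to 50 bases after the RefSeq start (GRCm38.p6), 5′ to 3′ on the gene's strand, with every CG dinucleotide in capitals. Serbp1, at chr6:67266729-67267028 on the plus strand and inside the longer gene span of GENCODE, was higher with Rnaseh1 in SN oocytes and lower in NSN oocytes. Styx, at chr14:45350936-45351235 on the plus strand, and Ms4a10, at chr19:10974651-10974950 on the minus strand, had the opposite pattern.
Serbp1: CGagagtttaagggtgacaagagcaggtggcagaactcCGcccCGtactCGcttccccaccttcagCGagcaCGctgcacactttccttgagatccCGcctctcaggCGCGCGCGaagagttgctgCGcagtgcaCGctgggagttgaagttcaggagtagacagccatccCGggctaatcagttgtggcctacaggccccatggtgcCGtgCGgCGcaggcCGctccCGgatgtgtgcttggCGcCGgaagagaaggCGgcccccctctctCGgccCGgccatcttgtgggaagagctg
Styx: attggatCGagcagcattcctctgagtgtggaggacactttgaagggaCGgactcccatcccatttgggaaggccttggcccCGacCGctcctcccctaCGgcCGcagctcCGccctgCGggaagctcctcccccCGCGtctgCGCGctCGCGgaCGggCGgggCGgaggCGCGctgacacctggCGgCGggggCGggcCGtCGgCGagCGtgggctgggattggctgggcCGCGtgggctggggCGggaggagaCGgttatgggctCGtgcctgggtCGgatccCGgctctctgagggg
Ms4a10: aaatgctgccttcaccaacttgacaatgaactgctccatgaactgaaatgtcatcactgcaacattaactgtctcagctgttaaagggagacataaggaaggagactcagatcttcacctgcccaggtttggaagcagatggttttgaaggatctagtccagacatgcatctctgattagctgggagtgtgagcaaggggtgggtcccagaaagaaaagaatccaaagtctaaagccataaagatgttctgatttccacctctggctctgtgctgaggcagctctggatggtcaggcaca
The Serbp1 window held 24 CG dinucleotides at 64.0% GC, the Styx window 33 at 72.0% GC, and the Ms4a10 window 0 at 46.7% GC. The motif CG reads the same on both strands and its matches cannot overlap. Of 27025 RefSeq promoters of the same length, 94.2% held at least 1 CG, with a median of 7, and the 9447 tested genes with a promoter in the table had a median of 20. Only 74.2% of the tested genes had a promoter in the table, so a comparison of promoters over all members is void, and nothing is drawn from these 3.

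Rnaseh1 itself (ENSMUSG00000020630.9, chromosome 12, 28649602 to 28659589 on the plus strand, GRCm38) was higher in Rnaseh1 oocytes of both stages. SN oocytes had 1361 and 1083 TPM with Rnaseh1, against 81.0 and 131 TPM with mCherry. NSN oocytes had 745 and 229 TPM with Rnaseh1, against 137 and 108 TPM with mCherry. The groups did not overlap in either stage, and the lower of the NSN Rnaseh1 libraries, replicate 2, lay closest to the controls. The effect was 3.55 in SN and 1.76 in NSN oocytes on the log2(TPM + 1) scale, a difference of 1.79 ± 0.80 (SE, limma, n = 2 per group) whose adjusted p was 1.0. Without NSN Rnaseh1 replicate 2 that difference was 0.94, and without replicate 1 it was 2.64. The values do not separate the introduced from the native transcript.

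Replicates differed most in NSN Rnaseh1 and SN mCherry oocytes, and replicate 2 of each is called below a library that stood apart. With 2 libraries per group, the difference does not show which of them departs. Results without this pair are therefore not cleaned values. Across genes, the standard deviation of the difference between replicates 1 and 2 on the log2 scale was 0.69 in SN Rnaseh1, 1.05 in SN mCherry, 1.28 in NSN Rnaseh1 and 0.62 in NSN mCherry oocytes. In NSN Rnaseh1 and SN mCherry oocytes that difference followed the GC content of the transcripts (Spearman correlation 0.43 and -0.43 across genes), while the other groups had 0.11 in SN Rnaseh1 and 0.05 in NSN mCherry oocytes. NSN Rnaseh1 replicate 2 listed 10036 genes at a TPM of at least 1, the fewest of the 8 libraries, where the highest was 11811. The 9 oocyte markers summed to 6630 to 6732 TPM in SN Rnaseh1, 6876 to 18422 in SN mCherry, 5658 to 13216 in NSN Rnaseh1 and 11010 to 14078 in NSN mCherry libraries. Of 20 granulosa and cumulus cell markers, 6 including Amh, Foxl2 and Inha were listed at 0 throughout, and the list summed to 151 to 196, 155 to 436, 66.2 to 221 and 248 to 294 TPM in the same order of groups. Other markers of that list were present in all 8 libraries, among them Serpine2 with 38.8 to 380.78 TPM and Cyp19a1 with 12.98 to 46.13 TPM. Of 16 leukocyte markers 8, Ptprc among them, were at 0 in all libraries, and the list summed to 44.0 to 44.7, 58.8 to 91.7, 22.5 to 59.8 and 69.3 to 77.9 TPM. Most of that sum was Ms4a1, a B cell marker of the same gene family as Ms4a10, with 20.8 to 87.2 TPM. Of 12 endothelial and stromal markers 5 were at 0, and that list summed to 11.5 to 13.1, 15.3 to 31.2, 8.4 to 18.2 and 17.2 to 18.6 TPM. The part of these differences in the results below was not tested, and the SN and NSN labels were not checked against markers of stage.

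No single gene passed the test of the stage difference. With limma and Benjamini-Hochberg adjustment over 12736 genes, 0 genes (0%) were called higher or lower, and the Rnaseh1 effect within SN or within NSN oocytes also gave 0 called genes (0%). Unadjusted p-values under 0.05 were found for 288 genes, 187 with a larger SN effect and 101 with a larger NSN effect. That is a smaller share of the 12736 genes than the 0.05 reached on average with no stage difference. Neither the number nor its split is read as a signal. The standard error of a stage difference had a median of 0.75 on the log2 scale. All directions below are therefore descriptions of these 8 libraries.

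Most genes lay on the same side of 0 in both stages. As deposited, 6407 genes were lower with Rnaseh1 in both stages and 2642 higher in both, while 2248 were higher in SN and lower in NSN and 1367 lower in SN and higher in NSN. The median effect over all genes was -0.22 in SN and -0.29 in NSN oocytes. After each library was centred on its median, the opposite classes held 1792 and 1921 genes. Effects in both stages, which share no control library, had a Pearson correlation of 0.52 and a Spearman correlation of 0.54 across genes. Genes are not independent replicates. The replicate differences of SN mCherry and NSN Rnaseh1 oocytes, which enter the SN and the NSN effect, had a Pearson correlation of -0.51 across genes. Their part in the likeness of the effects and in the count of genes lower in both stages was not tested.

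Separate Rnaseh1 and mCherry libraries in both stages gave a smaller set. In SN oocytes 18.9% of genes were higher and 31.7% lower with Rnaseh1 without overlap, and in NSN oocytes 10.3% were higher and 22.6% lower. Higher in SN and lower in NSN were 277 genes (2.17%), and lower in SN and higher in NSN were 99 genes (0.777%). The same direction in both stages was found for 510 higher genes (4.0%) and 1181 lower genes (9.27%). At a size of at least 1 in each stage, 13 genes (0.102%) were higher in SN and lower in NSN and 11 (0.0864%) lower in SN and higher in NSN, against 85 (0.667%) higher in both and 260 (2.04%) lower in both. Opposite movement was thus the less frequent outcome at either limit. With 2 libraries against 2, groups also separate often without any effect. How many such genes would arise that way was not tested, so the counts are descriptions only.

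The surplus of 277 over 99 genes depended on the scaling of the libraries. With median centring the counts were 162 and 193 genes, of which 84 and 62 were among the 277 and 99. With quantile normalization they were 164 and 166, and with the GC trend of each library removed 202 and 208. Without overlap as deposited and under all 3 of these scalings were 46 genes higher in SN and lower in NSN and 30 genes lower in SN and higher in NSN. Gm11808 (1.09 in SN, -1.0 in NSN), Polr3d (1.27, -1.03) and Gm47049 (-1.04, 1.25) were the members just inside the limit of 1. Just outside it were Kansl1l (1.23, -0.996), Slc35g2 (0.99, -1.05) and 4933406C10Rik (1.01, -0.976).

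**Figure D1:**
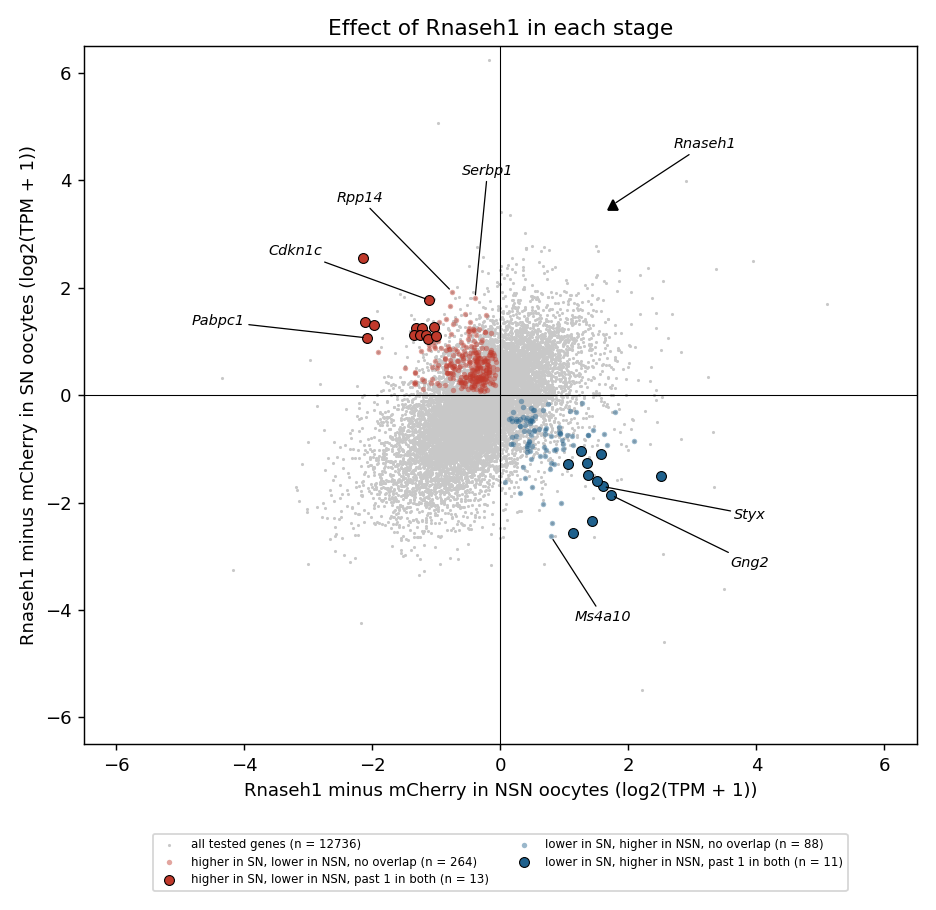
Rnaseh1 minus mCherry on the log2(TPM + 1) scale in SN oocytes (vertical axis) against NSN oocytes (horizontal axis), 1 point per tested gene (n = 12736). Coloured points are genes without overlap between libraries in either stage and with opposite directions, outlined where both effects reach 1; most genes lie in the lower left, and Rnaseh1, the triangle, lies at 1.76 and 3.55.

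Among the genes higher in SN and lower in NSN, Cdkn1c (ENSMUSG00000037664.13, chromosome 7, 143458339 to 143461050, minus strand) encodes p57, an inhibitor of cyclin-dependent kinases, and is an imprinted gene expressed from the maternal allele. SN oocytes had 12.02 and 9.24 TPM with Rnaseh1, against 2.1 and 2.7 TPM with mCherry. NSN oocytes had 2.71 and 3.26 TPM with Rnaseh1, against 8.49 and 6.8 TPM with mCherry. The high groups were thus SN Rnaseh1 and NSN mCherry, the low ones SN mCherry and NSN Rnaseh1, and replicates lay close together. The effect was 1.77 in SN and -1.11 in NSN oocytes, a stage difference of 2.88 ± 0.58 (SE), and 3.11 without the pair of libraries that stood apart. With the GC trend removed, the NSN groups of Cdkn1c overlapped.

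Serbp1 (ENSMUSG00000036371.6, chromosome 6, 67238176 to 67297736, plus strand) encodes an mRNA-binding protein that sits on ribosomes. SN oocytes had 432 and 557 TPM with Rnaseh1, against 153 and 128 TPM with mCherry. NSN oocytes had 152 and 110 TPM with Rnaseh1, against 165 and 176 TPM with mCherry. The SN Rnaseh1 group stood high above the other 6 libraries, which ranged from 110 to 176 TPM, so the opposite directions rested on a small NSN difference. The effect was 1.80 in SN and -0.40 in NSN oocytes, a stage difference of 2.19 ± 0.46 (SE). After median centring the NSN effect was -0.07 and its groups overlapped, while the SN effect was 2.04.

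Pabpc1 encodes the cytoplasmic poly(A)-binding protein, which coats mRNA tails and promotes translation, and Hnrnph3 a heterogeneous nuclear ribonucleoprotein of pre-mRNA processing. Pabpc1 had 17.1 and 16.0 TPM in SN Rnaseh1 oocytes, against 10.1 and 5.36 TPM in SN mCherry oocytes. NSN oocytes had 15.0 and 2.22 TPM with Rnaseh1, against 27.9 and 31.1 TPM with mCherry. The NSN mCherry libraries were the highest, and the NSN Rnaseh1 libraries differed widely from each other. Its stage difference was 3.15 ± 1.03 (SE), 2.0 without NSN Rnaseh1 replicate 2 and 1.6 without the libraries that stood apart, and processed copies of the gene make its values uncertain. Hnrnph3 had 46.1 and 32.2 TPM in SN Rnaseh1 oocytes and 12.95 and 16 TPM in SN mCherry oocytes. NSN oocytes had 16.3 and 4.6 TPM of it with Rnaseh1, against 18.5 and 17.8 TPM with mCherry, so only 1 of the Rnaseh1 libraries was clearly low. Its stage difference was 2.32 ± 0.79 (SE), and 1.51 without NSN Rnaseh1 replicate 2.

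Polr3d is a subunit of RNA polymerase III, which transcribes tRNA genes, and Rpp14 a subunit of ribonuclease P, which trims tRNA precursors. Polr3d had 16.8 and 13.4 TPM in SN Rnaseh1 oocytes, against 3.89 and 7.98 TPM in SN mCherry oocytes. In NSN oocytes it had 6.55 and 2.12 TPM with Rnaseh1, against 8.82 and 8.99 TPM with mCherry. SN Rnaseh1 was the highest group, NSN mCherry came next, and the stage difference was 2.30 ± 0.78 (SE). Rpp14 had 244 and 217 TPM in SN Rnaseh1 oocytes, against 43.1 and 82.8 TPM in SN mCherry oocytes. NSN oocytes had 78.4 and 37.2 TPM of Rpp14 with Rnaseh1, against 86.0 and 98.5 TPM with mCherry. As for Serbp1, the SN Rnaseh1 libraries were far above all others, and the stage difference of 2.68 ± 0.66 (SE) came mainly from the SN effect of 1.93.

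Arhgap39, Ptp4a1, Myo10 and Cep126 had the same pattern. Arhgap39, a GTPase-activating protein, had 54.6 and 35.5 TPM in SN Rnaseh1 oocytes and 12.6 and 30.6 TPM in SN mCherry oocytes. Its NSN levels were 9.05 and 11.9 TPM with Rnaseh1, against 22.8 and 34.2 TPM with mCherry. SN mCherry replicate 2 came within a few TPM of the lower SN Rnaseh1 library, and the stage difference was 2.47 ± 0.72 (SE). Ptp4a1, a small protein tyrosine phosphatase, had 583 and 838 TPM in SN Rnaseh1 oocytes and 367 and 165 TPM in SN mCherry oocytes. NSN oocytes had 265 and 189 TPM of Ptp4a1 with Rnaseh1, against 275 and 395 TPM with mCherry. The NSN groups nearly touched, and the NSN effect was -0.56, or -0.24 with overlap after median centring. Myo10, an unconventional myosin of filopodia, had 43.4 and 47.1 TPM in SN Rnaseh1 oocytes, against 25.0 and 12.1 TPM in SN mCherry oocytes. Its NSN libraries had 24.5 and 18.1 TPM with Rnaseh1, against 27.5 and 46.8 TPM with mCherry, and they overlapped under each of the 3 other scalings. Cep126, a protein of centrosomes and of the base of cilia, had 3.10 and 7.81 TPM in SN Rnaseh1 oocytes and 1.45 and 2.14 TPM in SN mCherry oocytes. In NSN oocytes it had 0.52 and 0.49 TPM with Rnaseh1, against 2.90 and 2.29 TPM with mCherry, the lowest level of its groups being NSN Rnaseh1. Its stage difference was 2.37 ± 0.70 (SE).

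Prl7d1, a member of the prolactin family of placental hormones, had 13.4 and 8.41 TPM in SN Rnaseh1 oocytes, against 4.91 and 2.99 TPM in SN mCherry oocytes. NSN libraries of Prl7d1 had 4.56 and 1.58 TPM with Rnaseh1, against 6.31 and 9.73 TPM with mCherry. The 4 groups of Prl7d1 followed the order of Polr3d, and its stage difference was 2.48 ± 0.77 (SE). Usp33, a deubiquitinating enzyme, had a stage difference of 2.08 ± 0.67 (SE), with 28.7 and 53.6 TPM in SN Rnaseh1 and 16.6 and 12.4 TPM in SN mCherry oocytes. Its NSN levels were 16.9 and 9.25 TPM with Rnaseh1, against 23.7 and 18.2 TPM with mCherry. Without both libraries that stood apart, the stage difference was 1.65 for Prl7d1, 1.24 for Ptp4a1, as deposited 2.06, and 1.37 for Myo10, as deposited 2.07. Kansl1l had a stage difference of 2.23 ± 0.63 (SE) at levels of 1.39 to 7.09 TPM. For the bZIP transcription factor gene Atf7, the mitochondrial DNA helicase gene Twnk and the solute carrier gene Slc10a4, NSN Rnaseh1 replicate 2 was the lowest of the 8 libraries, at 0.68, 1.59 and 0 TPM. Their stage differences were 2.71 ± 1.21, 2.08 ± 1.01 and 2.01 ± 0.93 (SE), and 1.32, 0.90 and 1.06 without NSN Rnaseh1 replicate 2. Without NSN Rnaseh1 replicate 1, Atf7 had 4.11 and Twnk 3.25. The 13 genes past 1 in both stages also held Mpv17, for an inner mitochondrial membrane protein, Capsl, Tnfsfm13 and the gene models Gm5798, Gm13710, Gm30567 and Gm11808. Apart from Gm11808, with 15.0 to 58.5 TPM, these genes had at most 9 TPM in any library, and Gm5798 had the largest stage difference of the set, 4.71 ± 0.79 (SE).

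Genes lower in SN and higher in NSN were mostly of lower abundance. Styx (ENSMUSG00000053205.9, chromosome 14, 45351093 to 45422820, plus strand) encodes a phosphatase-like protein without catalytic activity that binds MAP kinases. SN oocytes had 3.81 and 0.73 TPM with Rnaseh1, against 8.52 and 8.23 TPM with mCherry. NSN oocytes had 13.8 and 25.6 TPM with Rnaseh1, against 3.17 and 9.32 TPM with mCherry. NSN Rnaseh1 was the highest group and SN Rnaseh1 the lowest, although the NSN libraries spread widely within each group. The effect was -1.70 in SN and 1.597 in NSN oocytes, a stage difference of -3.30 ± 0.95 (SE), or -2.90 without the libraries that stood apart.

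Ms4a10 (ENSMUSG00000024731.15, chromosome 19, 10962293 to 10974670, minus strand) belongs to the MS4A family of membrane proteins. SN oocytes had 2.84 and 1.95 TPM with Rnaseh1, against 18.5 and 21.2 TPM with mCherry. NSN oocytes had 26.7 and 26.8 TPM with Rnaseh1, against 18.3 and 12.3 TPM with mCherry. The SN Rnaseh1 libraries were low, and the other 6 libraries had 12.3 to 26.8 TPM. The effect was -2.63 in SN and 0.79 in NSN oocytes, a stage difference of -3.42 ± 0.56 (SE), and its libraries did not overlap under any of the 3 other scalings. Leaving out a single library moved the stage difference of Ms4a10 only between -3.69 and -3.16.

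Gng2 and Stxbp2 were past 1 in both stages. Gng2, a gamma subunit of heterotrimeric G proteins, had 1.42 and 0.77 TPM in SN Rnaseh1 oocytes, against 7.47 and 5.68 TPM in SN mCherry oocytes. In NSN oocytes it had 9.90 and 5.92 TPM with Rnaseh1, against 0 and 5.84 TPM with mCherry. The NSN groups were separated by 5.92 against 5.84 TPM only, and the stage difference was -3.59 ± 1.20 (SE), or -2.21 without NSN mCherry replicate 1, the library at 0. Stxbp2, a syntaxin-binding protein of granule exocytosis, had 5 and 3.49 TPM in SN Rnaseh1 oocytes, against 5.78 and 30.5 TPM in SN mCherry oocytes. Its NSN libraries had 18.2 and 8.59 TPM with Rnaseh1, against 3.54 and 5.07 TPM with mCherry. A single SN mCherry library, replicate 2, was high, and without it the stage difference was -1.76 in place of -2.86 ± 1.06 (SE).

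Pnrc2, Dhx16 and Meg3 followed the same pattern. Pnrc2, an adaptor of mRNA decapping and a nuclear receptor coactivator, had 1.13 and 4.42 TPM in SN Rnaseh1 oocytes, against 7.41 and 5.33 TPM in SN mCherry oocytes. In NSN oocytes it had 20.1 and 145 TPM with Rnaseh1, against 17.1 and 18.4 TPM with mCherry. The NSN effect came almost wholly from replicate 2, and the stage difference of -2.67 ± 1.25 (SE) was -1.27 without NSN Rnaseh1 replicate 2 and -4.07 without replicate 1. Dhx16, a helicase of the spliceosome, had 0.70 and 0.16 TPM in SN Rnaseh1 and 1.85 and 7.56 TPM in SN mCherry oocytes. NSN oocytes had 6.75 and 6.07 TPM of it with Rnaseh1, against 4.12 and 5.95 TPM with mCherry, a small difference beside that in SN. The stage difference of Dhx16 was -2.13 ± 0.84 (SE), and -1.33 without SN mCherry replicate 2. Meg3, an imprinted long non-coding RNA of the maternal allele, had 2.54 and 0.07 TPM in SN Rnaseh1 and 3.89 and 7.30 TPM in SN mCherry oocytes. Its NSN levels were 3.39 and 6.08 TPM with Rnaseh1, against 2.88 and 3.02 TPM with mCherry, so that Meg3 and Cdkn1c, both expressed from the maternal allele, lay in opposite patterns. The stage difference of Meg3 was -2.21 ± 0.92 (SE), and -1.35 without SN Rnaseh1 replicate 2.

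The remaining named genes of the pattern had few transcripts. The chemokine gene Ccl1, the methyltransferase-like gene Comtd1, the dynein light chain gene Dynlrb2 and the RING-type ubiquitin ligase genes Rnf166 and Rnf135 had stage differences of -2.96 ± 0.75, -2.70 ± 1.12, -2.59 ± 1.04, -1.74 ± 0.60 and -1.69 ± 0.86 (SE). Their levels ran from 0 to 13.7 TPM. Without SN mCherry replicate 2, Comtd1 had -1.55 and Rnf135 -0.78, and without SN mCherry replicate 1 Rnf135 had -2.60. Without NSN mCherry replicate 2, Dynlrb2 had -1.62. Rnf135 had an NSN effect of only 0.07, with 4.77 and 5 TPM with Rnaseh1, against 4.5 and 4.7 TPM with mCherry. The T cell receptor variable segments Trav3d-3 and Trav3n-3 had the same value in each library, a stage difference of -2.12 ± 0.66 (SE), and count as a single near-identical pair. The 11 genes past 1 in both stages also held Crtap, a partner of collagen prolyl hydroxylation, Il11ra1, the interleukin-11 receptor alpha chain, 1700088E04Rik, 4930431L21Rik, Gm47049, and the antisense genes Fbxl12os and Gm28863. The sources used here do not say whether counting used strand, so the antisense genes cannot be told apart from their partners. 4930431L21Rik had 9.59 and 5.09 TPM in SN Rnaseh1 oocytes, against 40.5 and 53.9 TPM in SN mCherry oocytes, and 4.72 and 16.8 TPM in NSN Rnaseh1 oocytes, against 3.52 and 3.68 TPM in NSN mCherry oocytes.

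**Figure D2:**
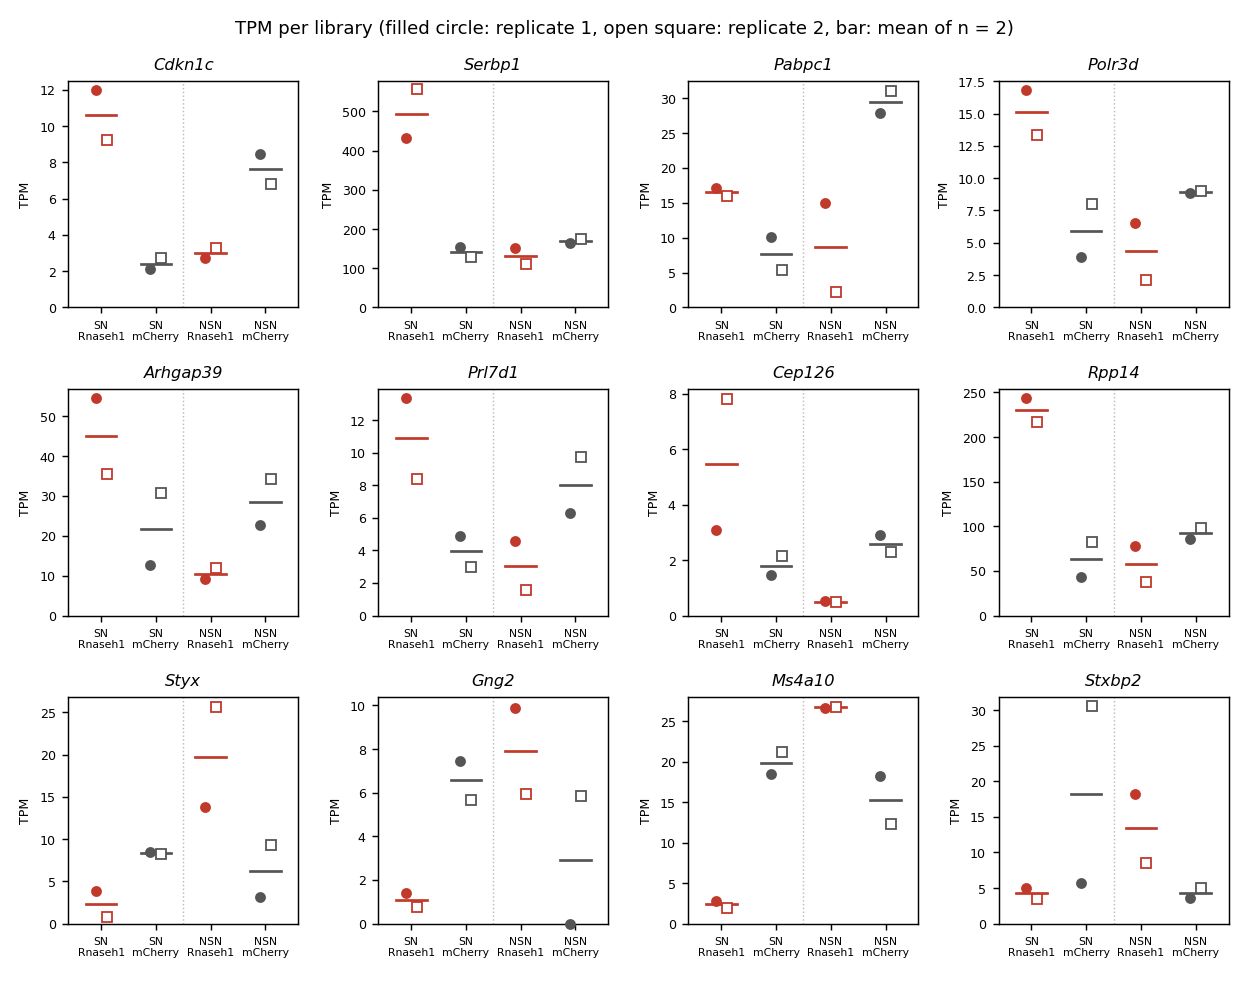
TPM of 12 genes in each of the 8 libraries, 1 panel per gene, with the mean of each group (n = 2) as a bar; the vertical axis starts at 0. Cdkn1c has its high groups at SN Rnaseh1 and NSN mCherry, Serbp1 and Rpp14 stand out in SN Rnaseh1 only, and the SN Rnaseh1 libraries of Ms4a10 lie at 2.84 and 1.95 TPM.

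The named genes and the genes past 1 were 44 in all. Their SN and NSN effects had opposite signs under median centring, quantile normalization and removal of the GC trend. The genes were chosen for opposite directions in these same libraries, so the kept signs are no separate support. Median centring moved all effects of a stage alike, and by too little to turn any of these signs. Separation without overlap was less stable. It was present under all 3 scalings for 15 of 23 genes higher in SN and lower in NSN and for 10 of 21 genes lower in SN and higher in NSN, and 8 and 11 genes overlapped under at least 1 of them. Gm11808, Myo10 and Dynlrb2 overlapped under all 3.

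Viewed over all members, the stages traded places between the treatments. Of the 277 genes higher in SN and lower in NSN, 254 were higher in SN than in NSN oocytes under Rnaseh1, and 254 were lower in SN than in NSN oocytes under mCherry. The highest group mean was SN Rnaseh1 for 189 of them and NSN mCherry for the other 88. Of the 99 genes lower in SN and higher in NSN, 58 were highest in NSN Rnaseh1 and 41 in SN mCherry oocytes. Both follow from the way the members were chosen and are given as a description. On the log2 scale relative to the mean of each gene, the 277 genes had medians of 0.23 and 0.39 in SN Rnaseh1, -0.21 and -0.23 in SN mCherry, -0.18 and -0.37 in NSN Rnaseh1 and 0.16 and 0.18 in NSN mCherry libraries. The median over all tested genes was -0.46 in NSN Rnaseh1 replicate 2 and 0.20 in SN mCherry replicate 2, the widest of the 8 libraries. In 180 of the 277 genes and 54 of the 99 genes, NSN Rnaseh1 replicate 2 lay farther from the mCherry libraries than replicate 1. The matching share of all tested genes was not counted, so whether these numbers are particular to the members is not known. Over all tested genes, NSN Rnaseh1 replicate 1 had a median of 0.17, beside -0.46 in replicate 2. The part of replicate 2 in the pattern was not tested.

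**Figure D3:**
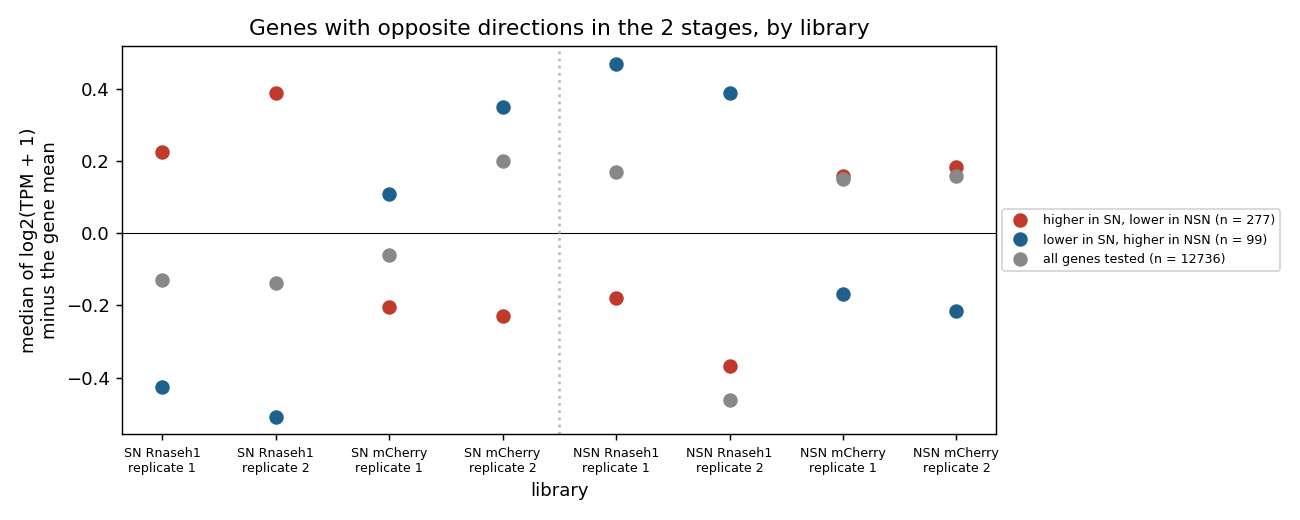
Median over genes of log2(TPM + 1) minus the mean of the gene, for each of the 8 libraries, for the 277 and the 99 genes with opposite directions and for all 12736 tested genes. The 277 genes are highest in the SN Rnaseh1 libraries and lowest in NSN Rnaseh1 replicate 2, where all genes together are at -0.46.

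The 2 sets also differed in GC content, length, level and share of protein-coding genes. The levels come from the same TPM values that chose the sets. Genes higher in SN and lower in NSN had a median transcript GC content of 45.4%, genes lower in SN and higher in NSN 50.5%, and all tested genes 49.0%. Median transcript lengths were 1706.5, 1110 and 1227 bases, and median mean levels 14.0, 2.55 and 8.80 TPM. Protein-coding genes made up 92.0%, 74.7% and 86.2%. Over all genes, the stage difference had a Spearman correlation of -0.25 with GC content, and the replicate differences described above followed GC as well, so the GC content of the sets and the libraries that stood apart move together here and the part of each was not tested.

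Lists of genes chosen for the biology of the oocyte and of R-loops had 396 tested members, of which 18 (4.55%) moved in opposite directions without overlap, beside 2.95% of all genes. With 0 genes called overall (0%), 0 members of the 21 lists passed the test of the stage difference. The 18 were Cdkn1c, Pabpc1, Serbp1, Cnot6l, Cox5a, Gins1, Ndufa9, Nlrp4a, Nr5a2, Pde3a, Thoc2 and Usp29, higher in SN and lower in NSN, and Ms4a10, Styx, Meg3, Kdm2a, Mapk13 and Hist1h1c, lower in SN and higher in NSN. The lists were chosen with earlier results of these data known, so the presence of Cdkn1c, Serbp1, Styx and Ms4a10 carries no independent weight.

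Factors that remove or prevent R-loops had 23 tested genes and a median effect of -0.17 in SN and -0.42 in NSN oocytes. Among them Thoc2, a subunit of the THO complex that packages new transcripts, had 22.0 and 17.8 TPM in SN Rnaseh1 and 17.2 and 15.5 TPM in SN mCherry oocytes. NSN oocytes had 18.1 and 20.9 TPM of Thoc2 with Rnaseh1, against 23.5 and 26.6 TPM with mCherry, a stage difference of 0.61 ± 0.49 (SE). Top1, the topoisomerase that relaxes DNA behind and ahead of the polymerase, had 0.70 ± 0.47 (SE). Of the H3K36 methyltransferases and demethylases, Kdm2a, which removes methyl groups from H3K36, had a stage difference of -1.51 ± 0.79 (SE) at levels from 0.41 to 3.76 TPM. For 25 transcription elongation factors the median stage difference was 0.11, beside 0.09 over all genes, and Eaf2, an elongation factor partner, had -1.51 ± 0.68 (SE). The list of H3K4 demethylases had only 5 tested genes, with medians of 0.98 in SN and 0.34 in NSN oocytes. The median of all genes was -0.22 and -0.29. Both list medians are the values of Kdm1b, and the members did not move as a group. Kdm1a had -0.54 in SN and -0.16 in NSN oocytes. Kdm5a had 1.59 and 0.76, with 39.7 and 7.11 TPM in the SN mCherry libraries.

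Several list genes had a large SN effect beside a much smaller NSN effect, which would be another form of stage dependence. Mcmbp, a binding partner of the MCM helicase, had 157 and 184 TPM in SN Rnaseh1 oocytes, against 16.9 and 23.6 TPM in SN mCherry oocytes. In NSN oocytes it had 21.9 and 29.8 TPM with Rnaseh1, against 19.8 and 18.9 TPM with mCherry. Mcmbp was thus higher without overlap in both stages, by 3.03 in SN and 0.38 in NSN oocytes. Only the SN Rnaseh1 libraries stood out, with a stage difference of 2.64 ± 0.50 (SE). Mapk8, the stress-activated kinase JNK1, had 149.9 and 120.1 TPM in SN Rnaseh1 oocytes, against 20.1 and 24.3 TPM in SN mCherry oocytes. Its NSN levels were 40.1 and 33.1 TPM with Rnaseh1, against 32.7 and 31.6 TPM with mCherry, and the stage difference was 2.37 ± 0.47 (SE). Copb1, a coat subunit of COPI vesicles, repeated the pattern at a higher level, with 990.4 and 1436 TPM in SN Rnaseh1 oocytes and 252 and 252 TPM in SN mCherry oocytes. NSN oocytes had 296 and 339 TPM of Copb1 with Rnaseh1, against 298 and 293 TPM with mCherry. Cdc7, the kinase that fires replication origins, had a stage difference of 1.90 ± 0.64 (SE). None of these genes passed the test across all genes (limma adjusted p 1.0).

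The median stage difference was 0.39 over 15 imprinted genes, 0.19 over 26 ribosome-bound and mRNA storage proteins, -0.03 over 76 genes of oxidative phosphorylation and -0.45 over 31 replication-dependent histones. Replication-dependent histone genes have near-identical copies, and their values are uncertain. Hist1h2ao and Hist1h2bj had stage differences of 3.33 ± 1.22 and -3.82 ± 1.46 (SE), with several libraries listed at 0. For 36 oocyte-specific and maternal-effect genes the median was 0.04, and the 9 oocyte markers had medians of -0.70 in SN and -0.66 in NSN oocytes.

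**Figure D4:**
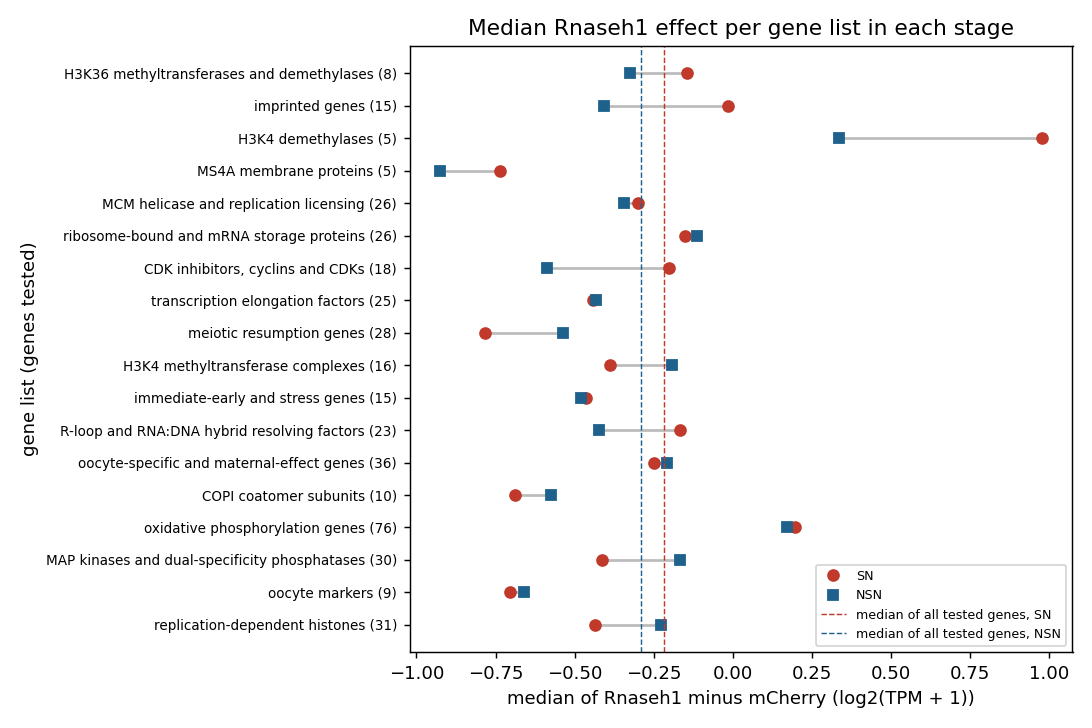
Median Rnaseh1 minus mCherry effect, log2(TPM + 1), of the 18 gene lists with at least 5 tested genes, in SN (circles) and NSN oocytes (squares); numbers in parentheses are tested genes and dashed lines the medians of all tested genes. H3K4 demethylases stand at 0.98 in SN and 0.34 in NSN oocytes, both the values of Kdm1b, and the imprinted genes at -0.02 and -0.41.

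The rescue set gave a separate measurement of Rnaseh1 against mCherry, with its own control libraries and no stage label. It was fitted on its own, and 12859 genes were tested, of which 2608 (20.3%) rose and 5945 (46.2%) fell with Rnaseh1. Over the 11806 genes tested in both tables, 21.0% rose and 45.9% fell, with a median effect of -0.49. Of the 277 genes higher in SN and lower in NSN, 264 were tested there, and 81 rose (30.7%) and 44 fell (16.7%), with a median effect of 0.12. Of the 99 genes lower in SN and higher in NSN, 87 were tested, and 10 rose (11.5%) and 33 fell (37.9%), with a median of -0.57. The set of 277 thus had a higher median than all genes as deposited, and the set of 99 a median near theirs.

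The counts moved with the scaling. After median centring, which shifts all genes of a library alike, 149 of the 264 genes rose and 10 fell (56.4% and 3.79%), beside 34.8% and 30.7% of all genes, and of the 87 genes 22 rose and 15 fell. With the GC trend removed, 80 rose and 39 fell (30.3% and 14.8%), beside 28% and 29.8% of all genes, and of the 87 genes 24 rose and 12 fell. The median effect was then 0.16 for the 264 genes, 0.28 for the 87 genes and -0.03 for all genes, so the order of both sets turned and the set of 99 was no longer near all genes. At the limit of 1 in both stages and as deposited, where 21.0% of all genes rose and 45.9% fell, 2 of 13 genes higher in SN and lower in NSN rose and 3 fell. Of the 9 tested genes lower in SN and higher in NSN, 1 rose and 1 fell on that scale. With the GC trend removed, the counts were 4 and 1 of 13 genes and 3 and 1 of 9 genes.

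Single members differed in which stage the rescue effect resembled. Serbp1 had 136 and 109 TPM with Rnaseh1 and 70.7 and 62.1 TPM with mCherry, a rise of 0.87 ± 0.13 on the log2 scale (SE, limma adjusted p = 0.0010), the SN direction. Ptp4a1 had 222 and 241 TPM with Rnaseh1, against 69.9 and 98.4 TPM with mCherry, and rose by 1.47 ± 0.17 (adjusted p = 0.00020). Capsl rose by 1.45 ± 0.25 (adjusted p = 0.0016) and Slc10a4 by 0.96 ± 0.32 (adjusted p = 0.030), and all 4 genes rose under median centring and with the GC trend removed. The Slc10a4 call was lost without Rnaseh1 replicate 1 (adjusted p = 0.099), without mCherry replicate 1 (0.13) and without mCherry replicate 2 (0.075). Prl7d1 rose by 1.37 and Kansl1l by 1.19, and neither call held with the GC trend removed (adjusted p = 0.075 and 0.080). Without mCherry replicate 2, both also missed the threshold (0.052 and 0.063), as did Kansl1l without mCherry replicate 1 (0.056). Cdkn1c had 5.94 and 4.64 TPM with Rnaseh1, against 4.06 and 2.61 TPM with mCherry, an effect of 0.55 ± 0.34 that missed the threshold as deposited (adjusted p = 0.20) and passed it after median centring (1.14, adjusted p = 0.022).

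Other genes of that pattern fell in the rescue set, the NSN direction. Polr3d had 4.09 and 3.37 TPM with Rnaseh1, against 11.5 and 11.9 TPM with mCherry, and fell by 1.43 on the log2 scale (SE 0.20, limma adjusted p = 0.00067), though not with the GC trend removed (-0.26, adjusted p = 0.30). Hnrnph3 had an effect of -1.18 ± 0.26 (adjusted p = 0.0052), which was -0.60 after median centring (adjusted p = 0.081). Pabpc1 had an effect of -1.26 ± 0.46 (adjusted p = 0.046), and the call was lost after median centring (0.26) and without mCherry replicate 1 (0.25), Rnaseh1 replicate 1 (0.20) or Rnaseh1 replicate 2 (0.052). Twnk, Gm11808 and Myo10 fell as deposited, by 0.87, 1.57 and 0.62, and none fell after centring or with the GC trend removed, where Myo10 rose. Leaving out mCherry replicate 2 ended the calls of Twnk (adjusted p = 0.059) and Myo10 (0.069), and leaving out mCherry replicate 1 that of Gm11808 (0.063). Rpp14, so high in SN Rnaseh1 oocytes, had 50.2 and 50.9 TPM with Rnaseh1 and 52.2 and 49.1 TPM with mCherry, an effect of -0.0027 ± 0.10 that was 0.58 after median centring (limma adjusted p = 0.0031).

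Among genes lower in SN and higher in NSN, Stxbp2 fell the most. It had 4.89 and 4.06 TPM with Rnaseh1, 29.1 and 23.3 TPM with Rnaseh1 and Supt6, and 37.4 and 38.2 TPM with mCherry. Its Rnaseh1 effect of -2.83 ± 0.18 (limma adjusted p = 1.1e-05) was also past the threshold after median centring and with the GC trend removed, and the libraries with Supt6 lay between those of the other groups. Meg3 had 0.65 and 1.43 TPM with Rnaseh1, 6.79 and 8.83 TPM with Rnaseh1 and Supt6, and 11.1 and 9.13 TPM with mCherry. The effect of Rnaseh1 on Meg3 was -2.47 ± 0.28 (adjusted p = 0.00021), and Rnf135 had -1.66 ± 0.25 (adjusted p = 0.00078), both also past the threshold after centring and with the GC trend removed. Dhx16 fell by 1.09 (adjusted p = 0.00084), but not with the GC trend removed (-0.15, adjusted p = 0.45). In the NSN direction, Dynlrb2 rose by 2.25 ± 0.34 (adjusted p = 0.00090) and 4930431L21Rik by 2.25 ± 0.53 (adjusted p = 0.0073), the second of which missed the threshold without Rnaseh1 replicate 2 (0.054) or mCherry replicate 2 (0.058). Ms4a10 had 12.1 and 6.67 TPM with Rnaseh1 and 10.7 and 8.79 TPM with mCherry, and Styx had 7.46 and 5.93 TPM and 2.65 and 8.38 TPM in the same groups. Their effects, -0.10 ± 0.28 and 0.39 ± 0.47, did not pass (adjusted p = 0.78 and 0.49), though Ms4a10 passed with the GC trend removed (1.15, adjusted p = 0.011).

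**Figure D5:**
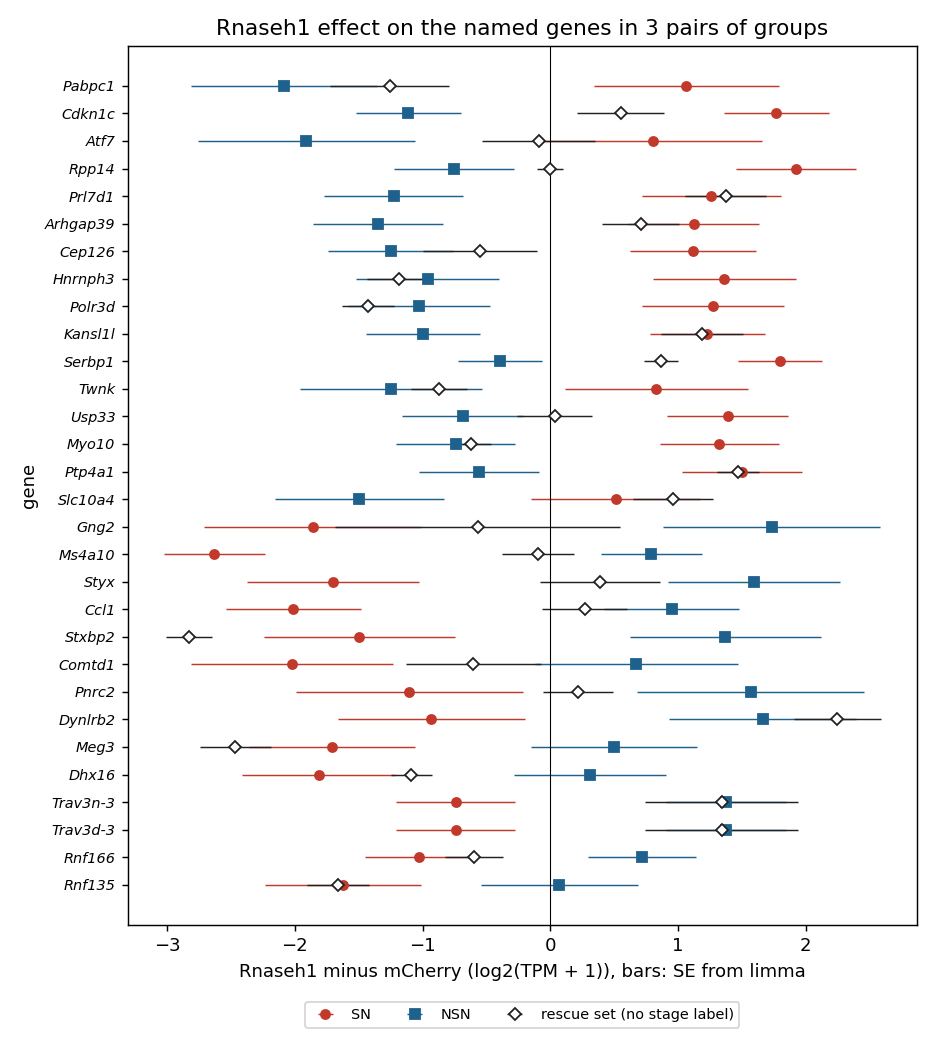
Rnaseh1 minus mCherry, log2(TPM + 1), for 30 named genes in SN oocytes (circles), NSN oocytes (squares) and the rescue set (diamonds), with the standard error from limma (n = 2 per group). SN and NSN points lie on opposite sides of 0 by the choice of genes, whereas the rescue points lie on the SN side for Serbp1, Ptp4a1, Stxbp2 and Meg3 and on the NSN side for Polr3d, Pabpc1 and Dynlrb2.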

How the data were processed

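Polyadenylated RNA of 14 mouse oocyte libraries in 7 groups of 2 was measured. The deposited values are TPM per gene, 1 column per library, in one table for the 8 SN and NSN libraries and another for the 6 rescue libraries. Per the submitters' processing notes, which give no roles, the genome was mm10 and the tools included RSEM 1.3.3, STAR 2.7.0d, Trim Galore 0.6.7 and DESeq2. Depth cannot be read from TPM and is unknown, and an exact 0 is reported as listed at 0.

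The tables were fitted separately on log2(TPM + 1) in R 4.3.3, using limma 3.58.1 with group means and a mean trend in eBayes. The scale understates changes of low genes. Genes reaching 1 TPM in 2 or more libraries were tested at a Benjamini-Hochberg adjusted p under 0.05, and only genes past it are said to rise or fall. GENCODE M21 (GRCm38) matched 34611 of 35389 identifiers and gave coordinates, GC content and length; promoters are from RefSeq. The fit was checked on simulated data.

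The genes and lists were chosen with earlier results of these data known. Named by rule were Rnaseh1, Cdkn1c, Serbp1, Ms4a10 and Styx, then per pattern up to 12 annotated genes past 1 in both stages with a highest group mean of at least 5 TPM, and up to 3 members per list with the smallest p. Another 10 per pattern with the largest stage difference among the other non-overlapping genes, the remaining genes past 1 and other list members without overlap were named after their values were seen.

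Replicate numbers did not pair the libraries: deviations of same-numbered libraries had correlations from -0.51 to 0.17. The stage fit was repeated with the pseudocount at 0.1 or 5, with the filter dropped or set to 5 TPM, and with centring on the median of genes averaging 10 TPM or more, quantile normalization, removal of each library's GC trend by lowess (span 0.3), robust eBayes, library weights, a replicate block and leaving out libraries. The rescue fit was repeated with the pseudocount at 5, centring, GC removal, the block and single libraries left out. Counts of SN and NSN calls under them were added after the data were seen.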

Additional observations from a re-analysis of the deposited data

Results flagged for a closer look

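In 30 named genes, both Rnaseh1 libraries lay on one side of both mCherry libraries in SN oocytes and on the other side in NSN oocytes. Each is listed with its stage difference, the SN effect minus the NSN effect of Rnaseh1 on the log2(TPM + 1) scale. Of those higher in SN and lower in NSN, the values were Pabpc1 3.15, Cdkn1c 2.88, Atf7 2.71, Rpp14 2.68, Prl7d1 2.48, Arhgap39 2.47, Cep126 2.37 and Hnrnph3 2.32. The others of that pattern had Polr3d 2.30, Kansl1l 2.23, Serbp1 2.19, Twnk 2.08, Usp33 2.08, Myo10 2.07, Ptp4a1 2.06 and Slc10a4 2.01. Of those lower in SN and higher in NSN, the values were Gng2 -3.59, Ms4a10 -3.42, Styx -3.30, Ccl1 -2.96, Stxbp2 -2.86, Comtd1 -2.70 and Pnrc2 -2.67, and the rest had Dynlrb2 -2.59, Meg3 -2.21, Dhx16 -2.13, Trav3d-3 -2.12, Trav3n-3 -2.12, Rnf166 -1.74 and Rnf135 -1.69. The genes were chosen for this pattern, and the limma test of the difference across all genes passed for 0 of them (adjusted p 1.0).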

How the results depend on the processing

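All 31 named genes kept the sign of their stage difference under the 19 alternatives tried, 587 values. All but Rnaseh1 were chosen for libraries that separate in opposite directions, which fixes that sign under most alternatives. Median centring moved the stage differences of all genes by the same amount, which was too small to reverse any of these signs. Only quantile normalization and removal of the GC trend could have reversed the sign of the genes so chosen. Stage difference calls stayed at 0 genes except 1, Gm10226, without NSN Rnaseh1 replicate 2 (range 0 to 1 when 1 library was left out). With the replicate block, 0 genes were called and 203 had an unadjusted p under 0.05; the numbers do not pair the libraries. In the rescue set the block gave Pabpc1 an adjusted p of 0.054 (limma), and a pseudocount of 5 gave it 0.051. Calls in SN oocytes were 1 gene, Rnaseh1, with the GC trend removed and 1, Gm37750, with the replicate 2 libraries of NSN Rnaseh1 and SN mCherry both left out (0 to 0 with 1 library left out). Calls in NSN oocytes ranged from 0 to 1103 with 1 library left out, and 1103 came without NSN Rnaseh1 replicate 1, which leaves that group to replicate 2.

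Counts of genes with opposite directions are given for the pattern higher in SN and lower in NSN first, then for lower in SN and higher in NSN. Past 1, they were 13 and 11 as reported, 38 and 44 with a pseudocount of 0.1, and 0 and 0 with 5, which shrinks low genes by construction. They were 8 for the first pattern at TPM of at least 5, 7 and 21 with median centring, 8 and 20 with quantile normalization, and 19 for the second with the GC trend removed. Without overlap at any size, 46 remained of the second at TPM of at least 5, 162 and 193 were found with median centring, 164 and 166 with quantile normalization, and 208 of the second with the GC trend removed. The causes were not tested. With fewer libraries, overlap is rarer by construction: without both libraries that stood apart the counts were 26 and 87 past 1 and 1232 and 1837 in all. With 1 library left out they ranged from 16 to 48 and 15 to 66 past 1, and from 409 to 752 and 163 to 1377 in all; a lone library was assumed to vary like the other groups.

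In the rescue set, genes past 1 that rose and fell were 5 and 1 of the first pattern with median centring and 4 and 1 with the GC trend removed; of the second, 2 and 3 rose. Without overlap at any size, 149 rose and 10 fell of the first with centring, and of the second 22 and 15 with centring and 24 and 12 with the GC trend removed. With 1 rescue library left out, 1 to 4 rose and 1 to 6 fell of the first past 1, and 0 to 1 rose and 1 to 2 fell of the second; at any size, 58 to 81 rose and 22 to 49 fell of the first, and 8 to 10 rose and 24 to 33 fell of the second.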
